A study of Gallus gallus with 12 samples.

Results

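The 10 genes described here encode core parts of the Notch pathway: the receptors NOTCH1 and NOTCH2, the ligands JAG1, JAG2 and DLL1, the transcription factors HES1, HEY1, HEY2 and HEYL that Notch signalling induces, and the glycosyltransferase LFNG. They were picked by symbol from the 21350 features of the count tables. Each symbol had 1 row, and all 10 genes passed the filter on low counts, as did 18979 features in all. HES1 is also an older name of HES4 in the RefSeq gene table, but the count tables list the 2 genes in separate rows, and the row named HES1 was used.

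Notch receptors are cut when a ligand on a neighbouring cell binds them, and the released intracellular part enters the nucleus, joins the DNA-binding protein RBPJ and switches on HES and HEY genes. These encode basic helix-loop-helix repressors. LFNG adds a sugar to the receptor and so shifts which ligands it answers to. In limb bud mesenchyme the pathway is known for its part in holding back early cartilage differentiation and in patterning vessels and muscle precursors.

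RNA was sequenced from mesenchymal cells of chick limb buds (breed Lohmann Selected Leghorn, embryonic day 4.5), infected before plating and grown for 5 days as dense droplet cultures. The cells carried the avian retroviral vector RCAS-BP(A) with the coding sequence of OSR1, OSR2, EGR1, KLF2 or KLF4, which the labels mark with the suffix 3F, or the same vector without an insert, called Control here. All 6 groups thus share the viral infection, and each had 2 replicates, with 6 cultures pooled in each RNA extract. No label tells if the replicates are from different embryos, so the p-values cover just the spread among these libraries, which may be technical.

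Totals ran from 51233721 to 106079374 counts per library, with the 2 lowest totals in the Control libraries. Each overexpressed gene was at 1230 CPM (counts relative to the library total after scaling) or more on average in its own libraries. It was at 139 CPM or less in every other group. All 20 limb mesenchyme markers looked for were listed, and HOXA11 stayed at or under 0.314 CPM. PRRX1 lay between 166 and 560 CPM, with a mean of 177 CPM in Control and 310 (EGR1) to 543 CPM (OSR2) in the factor groups. The 20 markers summed to 1183 to 1245 CPM in Control libraries and 1429 to 1962 CPM in factor libraries. PRRX1 had the highest mean of the 20 in each factor group and so weighed most in the sum there. Not all were lower in Control, where HOXA10 averaged 5.57 CPM, against 2.64 to 3.45 CPM in the factor groups. LHX9 averaged 126 CPM in Control, against 85.3 (KLF4) to 178 CPM (OSR2) in the factor groups. On the first principal component of log2 CPM, which held 41.8% of the variance, the 10 factor libraries lay between -7.471 and 38.85 and the Control libraries at -96.04 and -75.29. The Control libraries therefore stand apart from all others, and comparisons between factors are given beside those with Control. Said of a factor, rose or fell means higher or lower than in Control. A difference shared by every factor cannot be told apart from one particular to the Control libraries. In bulk RNA, fewer cells of a type and less RNA per cell cannot be told apart.

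Of the 10 genes, 8 were higher in each of the 10 factor libraries than in both Control libraries, a pattern that 25.5% of all tested genes showed. These were NOTCH1, NOTCH2, JAG1, DLL1, HES1, HEY2, HEYL and LFNG. JAG2 was lower in each of the 10 than in both Control libraries, as 21.6% of genes were, and HEY1 went both ways. The largest difference was that of HEYL, which averaged 12.4 ± 1.32 CPM in KLF2 and 16.7 ± 0.322 CPM in KLF4 libraries, against 1.47 ± 0.252 CPM in Control (SD, n = 2 each).

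**Figure D1:**
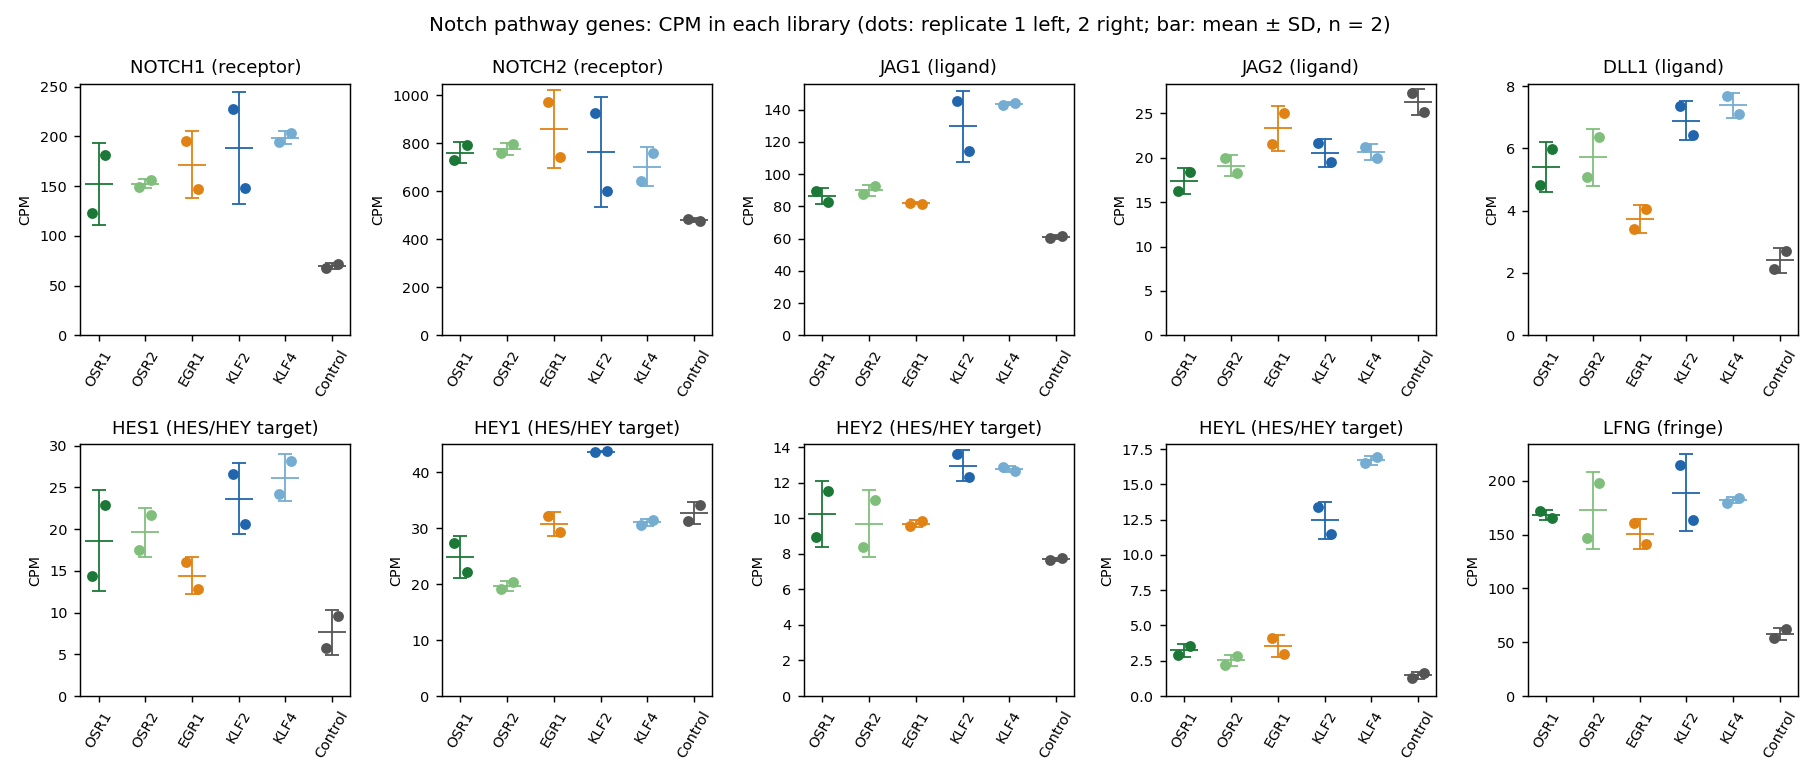
CPM of the 10 Notch pathway genes (vertical axes, linear and starting at 0) in each library of the 6 groups (horizontal axes), with the mean and SD of the 2 replicates. HEYL reaches 13.4 CPM or less in KLF2 and 16.9 CPM or less in KLF4 libraries and stays at or under 4.08 CPM in the 8 others, HEY1 is above both Control libraries in KLF2 libraries alone, and JAG2 is highest in Control.

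The receptor NOTCH1 had 123 and 181 CPM with OSR1, 149 and 156 with OSR2, 195 and 148 with EGR1, 228 and 148 with KLF2 and 194 and 203 with KLF4, against 67.6 and 71.6 CPM in Control. All factor libraries were above Control. In the order of the 5 factors each neighbour overlapped the next, but both KLF4 libraries were above all OSR1 and OSR2 libraries. NOTCH1 rose in each comparison with Control, by log2 fold changes of 1.12 with OSR1 (standard error, SE, 0.24, adjusted p = 0.0053), 1.13 with OSR2 (SE 0.24, adjusted p = 0.0048), 1.30 with EGR1 (SE 0.24, adjusted p = 0.0034), 1.43 with KLF2 (SE 0.24, adjusted p = 0.0016) and 1.51 with KLF4 (SE 0.24, adjusted p = 0.0011). These and all later adjusted p-values come from the two-sided quasi-likelihood F test of edgeR, adjusted by Benjamini-Hochberg over the 18979 genes, and a gene was called at an adjusted p under 0.05.

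NOTCH2, the second receptor among the 10 genes, had 729 and 792 CPM with OSR1, 759 and 795 with OSR2, 974 and 744 with EGR1, 927 and 603 with KLF2 and 645 and 760 with KLF4, against 486 and 476 CPM in Control. It rose on the log2 scale by 0.66 with OSR1, 0.69 with OSR2, 0.84 with EGR1, 0.67 with KLF2 and 0.55 with KLF4 (SE 0.19, adjusted p between 0.0073 and 0.036). The factor groups overlapped one another and none overlapped Control. The NOTCH2 calls were not stable when single libraries were left out, although all 10 factor libraries were above both Control libraries. Leaving out either Control library ended the call in OSR1, OSR2, KLF2 and KLF4 at adjusted p between 0.064 and 0.12, with estimates between 0.53 and 0.71. It also ended without OSR1 replicate 2 (0.61, adjusted p = 0.066), OSR2 replicate 2 (0.66, adjusted p = 0.069), EGR1 replicate 1 (0.63, adjusted p = 0.06), KLF2 replicate 1 (0.29, adjusted p = 0.16) and KLF4 replicate 2 (0.43, adjusted p = 0.18).

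Among the ligands, JAG1 rose with every factor and most with KLF2 and KLF4. It had 89.8 and 82.8 CPM with OSR1, 87.3 and 92.4 with OSR2, 82.2 and 81.3 with EGR1, 145 and 114 with KLF2 and 143 and 144 with KLF4, against 60.1 and 61.6 CPM in Control. The 4 KLF libraries were above all others, the OSR and EGR1 libraries lay between them and Control, and the 2 Control libraries were lowest. The log2 fold changes over Control were 0.50 with OSR1 (SE 0.10, adjusted p = 0.0022), 0.56 with OSR2 (SE 0.10, adjusted p = 0.0011), 0.43 with EGR1 (SE 0.10, adjusted p = 0.0064), 1.09 with KLF2 (SE 0.10, adjusted p = 3.1e-05) and 1.24 with KLF4 (SE 0.10, adjusted p = 8.8e-06).

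DLL1, a Delta-type ligand, was counted at low levels, with 113 and 163 reads in the Control libraries and 345 to 705 in the others. It had 4.82 and 5.98 CPM with OSR1, 5.07 and 6.37 with OSR2, 3.42 and 4.05 with EGR1, 7.35 and 6.44 with KLF2 and 7.67 and 7.10 with KLF4, against 2.12 and 2.69 CPM in Control. The order of groups was KLF, then OSR, then EGR1, then Control, with no overlap between these 4 steps. DLL1 rose by log2 fold changes of 1.16 with OSR1, 1.25 with OSR2, 0.63 with EGR1, 1.52 with KLF2 and 1.62 with KLF4 (SE 0.19, adjusted p between 7.5e-05 and 0.018). The call in EGR1 ended without EGR1 replicate 2 (0.51, adjusted p = 0.097) and without Control replicate 1 (0.47, adjusted p = 0.14).

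JAG2, the second Jagged ligand, moved the other way. It had 16.3 and 18.4 CPM with OSR1, 19.9 and 18.3 with OSR2, 21.5 and 25.1 with EGR1, 21.7 and 19.5 with KLF2 and 21.3 and 20.01 with KLF4, against 27.3 and 25.2 CPM in Control. Only in EGR1 libraries did a value come close to Control. JAG2 fell in OSR1 (log2 fold change -0.60, SE 0.11, adjusted p = 0.0017), OSR2 (-0.46, SE 0.11, adjusted p = 0.0064), KLF2 (-0.35, SE 0.11, adjusted p = 0.023) and KLF4 libraries (-0.35, SE 0.11, adjusted p = 0.023). In EGR1 it was not called (-0.17, SE 0.11, adjusted p = 0.23). Without Control replicate 1 the call ended in OSR2 (-0.40, adjusted p = 0.056), KLF2 (-0.29, adjusted p = 0.14) and KLF4 (-0.29, adjusted p = 0.14). It also ended without OSR2 replicate 2 (-0.39, adjusted p = 0.057), KLF2 replicate 2 (-0.27, adjusted p = 0.12), KLF4 replicate 1 (-0.39, adjusted p = 0.062) and KLF4 replicate 2 (-0.30, adjusted p = 0.14), and for KLF2 in a fit of the 4 libraries alone (-0.35, adjusted p = 0.053).

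The modifier LFNG rose with every factor over Control and was called in none of the comparisons between factors. It had 172 and 165 CPM with OSR1, 147 and 198 with OSR2, 160 and 141 with EGR1, 215 and 164 with KLF2 and 180 and 184 with KLF4, against 54.0 and 61.9 CPM in Control. Neighbours in the order of the factors overlapped, apart from OSR1 and EGR1. Both EGR1 libraries were also below all KLF libraries, and both KLF4 libraries were above both OSR1 libraries. All factor libraries lay above both Control libraries. The log2 fold changes were 1.54 with OSR1, 1.57 with OSR2, 1.38 with EGR1, 1.71 with KLF2 and 1.65 with KLF4 (SE 0.16, adjusted p between 4.8e-05 and 0.00034). These calls held under all 11 alternatives tried in each comparison, with estimates between 1.29 and 1.89.

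**Figure D2:**
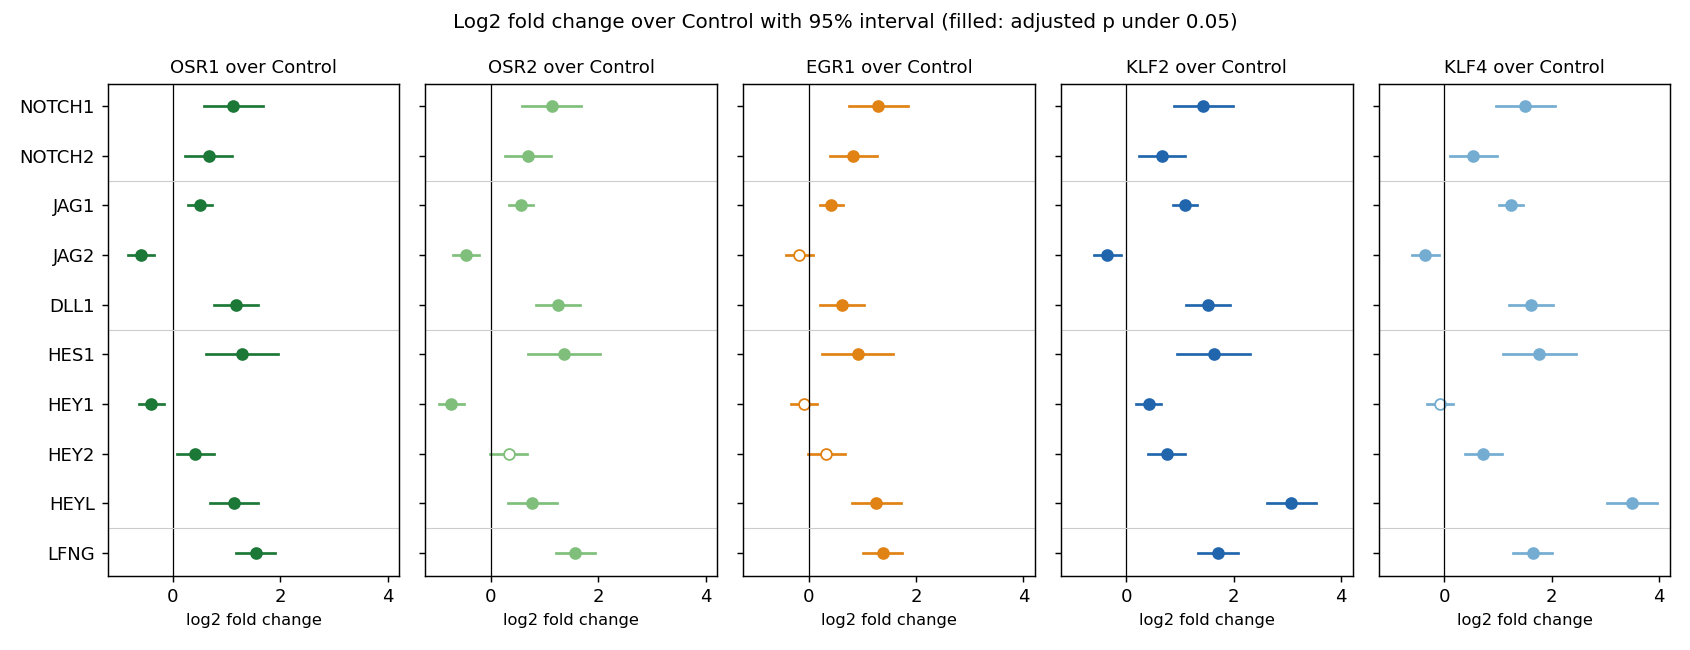
Log2 fold change over Control (horizontal axes) of the 10 genes (rows, from receptors at the top through ligands and HES/HEY targets to LFNG) for each factor, with 95% intervals from the edgeR fit; filled points passed an adjusted p of 0.05. JAG2 lies left of 0 in each panel, HEYL lies at 3.07 in KLF2 and 3.50 in KLF4, and LFNG between 1.38 and 1.71 in all 5.

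Of the HES/HEY targets, HES1, a repressor that Notch switches on in many tissues, rose with every factor. It had 14.3 and 22.9 CPM with OSR1, 17.6 and 21.6 with OSR2, 16.01 and 12.8 with EGR1, 26.7 and 20.6 with KLF2 and 24.2 and 28.1 with KLF4, against 5.76 and 9.54 CPM in Control. Neighbouring factor groups overlapped throughout, and all lay above Control. HES1 rose by log2 fold changes of 1.28 with OSR1 (SE 0.29, adjusted p = 0.007), 1.35 with OSR2 (SE 0.29, adjusted p = 0.0051), 0.91 with EGR1 (SE 0.29, adjusted p = 0.033), 1.62 with KLF2 (SE 0.29, adjusted p = 0.0021) and 1.77 with KLF4 (SE 0.30, adjusted p = 0.0013). The EGR1 call ended without EGR1 replicate 1 (0.75, adjusted p = 0.17) and without Control replicate 1 (0.60, adjusted p = 0.18). In OSR1 it ended in a fit of the 4 libraries alone (1.26, adjusted p = 0.06, with a range over all alternatives of 8.8e-06 to 0.06).

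HEY1 was the target whose direction depended on the factor. It had 27.4 and 22.1 CPM with OSR1, 19.0 and 20.4 with OSR2, 32.2 and 29.3 with EGR1, 43.6 and 43.7 with KLF2 and 30.6 and 31.5 with KLF4, against 31.3 and 34.0 CPM in Control. KLF2 libraries were highest, EGR1 and KLF4 libraries overlapped Control, and the OSR libraries were below all of these. HEY1 rose in KLF2 (0.42, SE 0.11, adjusted p = 0.0082) and fell in OSR1 (-0.40, SE 0.11, adjusted p = 0.011) and OSR2 (-0.73, SE 0.11, adjusted p = 0.00035). It was not called in EGR1 (-0.09, 95% interval -0.33 to 0.15) or KLF4 (-0.07, 95% interval -0.31 to 0.16). The OSR1 call ended without OSR1 replicate 2 (-0.25, adjusted p = 0.097) and without Control replicate 2 (-0.34, adjusted p = 0.074), and the KLF2 call without Control replicate 1 (0.36, adjusted p = 0.071). As a background for cartilage markers, the share of all tested genes that fell was lowest with EGR1 (20.5%). It lay between 22.7% (OSR1) and 25.5% (KLF4) with the other factors. The share that rose lay between 24.6% (EGR1) and 28.9% (OSR2). Of 17 cartilage markers, 17 fell in OSR1 and 17 in OSR2 libraries, 5 in EGR1, where 1 rose, 12 in KLF2 and 11 in KLF4, where 1 rose. Their summed level was 5444 to 6543 CPM in OSR1, 3931 to 4167 CPM in OSR2, 19170 to 22870 CPM in EGR1, 13980 to 16280 CPM in KLF2 and 14350 to 16420 CPM in KLF4 libraries, against 20480 to 21850 CPM in Control. The part of these cells in the HEY1 values was not tested.

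HEY2, a close relative of HEY1 known from the heart and arteries, rose in both KLF groups. It had 8.93 and 11.5 CPM with OSR1, 8.36 and 11.04 with OSR2, 9.54 and 9.84 with EGR1, 13.6 and 12.3 with KLF2 and 12.9 and 12.6 with KLF4, against 7.63 and 7.74 CPM in Control. The KLF libraries were above the rest and the Control libraries lowest. It rose in KLF2 (0.75, SE 0.16, adjusted p = 0.0025) and KLF4 (0.73, SE 0.16, adjusted p = 0.0028). In OSR1 it was at the limit of the test (0.41, SE 0.16, adjusted p = 0.046) and was called in 3 of 11 alternatives, with estimates between 0.22 and 0.59. Without OSR1 replicate 2 it was 0.22 (adjusted p = 0.31), without Control replicate 1 0.41 (adjusted p = 0.15) and without Control replicate 2 0.43 (adjusted p = 0.12). The other 5 that ended it were other scalings, thinning, the block and the 2 groups alone (adjusted p between 0.051 and 0.12). HEY2 was not called in OSR2 (0.34, adjusted p = 0.094) or EGR1 (0.33, adjusted p = 0.1), although in OSR2 it passed without OSR2 replicate 1 (0.53, adjusted p = 0.026).

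HEYL, the third HEY gene, was the least counted of the 10 in Control, with 69 and 100 reads there and 1050 to 1596 reads in the KLF libraries. It had 2.93 and 3.55 CPM with OSR1, 2.23 and 2.81 with OSR2, 4.08 and 2.99 with EGR1, 13.4 and 11.5 with KLF2 and 16.5 and 16.9 with KLF4, against 1.29 and 1.65 CPM in Control. The KLF libraries were far above all others, and the 2 KLF groups did not overlap each other. HEYL rose 8.42-fold in KLF2 (log2 fold change 3.07, SE 0.21, adjusted p = 6.2e-06) and 11.3-fold in KLF4 (3.50, SE 0.21, adjusted p = 1.6e-06). It rose 2.19-fold in OSR1 (1.13, SE 0.21, adjusted p = 0.0013), 1.71-fold in OSR2 (0.77, SE 0.21, adjusted p = 0.01) and 2.39-fold in EGR1 (1.26, SE 0.20, adjusted p = 0.0011). The OSR2 call ended without OSR2 replicate 2 (0.60, adjusted p = 0.079) and without Control replicate 1 (0.61, adjusted p = 0.087).

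HEYL is known in mice from vascular smooth muscle and mural cells, and Notch genes from endothelium, so markers of both were set beside it. Of 16 smooth muscle and mural markers, 12 rose and 1 fell in KLF2 and 10 rose and 2 fell in KLF4 libraries, and 13 rose in OSR1, 13 in OSR2 and 10 in EGR1, where 1 fell. Of all tested genes, 28.4% rose and 22.7% fell in OSR1, 28.9% and 23% in OSR2 and 24.6% and 20.5% in EGR1. In KLF2 the shares were 28.1% and 23.5%, and in KLF4 28.7% and 25.5%. Their summed level was 5969 to 6388 CPM with OSR1, 6447 to 6813 with OSR2, 5018 to 5134 with EGR1, 5376 to 5974 with KLF2 and 5332 to 5519 CPM with KLF4, against 3411 to 3715 CPM in Control. Of the mural markers, CSPG4 averaged 475 CPM in KLF2 and 557 CPM in KLF4 libraries, against 155 CPM in Control, while RGS5 averaged 2.13 CPM in KLF2 and 1.27 CPM in KLF4, against 2.07 CPM in Control. The summed level was highest in OSR2 libraries, where ACTA2 (2000 CPM) and TPM1 (1830 CPM) weighed most in it. CSPG4 averaged 146 CPM and RGS5 5.61 CPM in those libraries. Of 21 tested endothelial markers, 10 rose and 4 fell in both OSR1 and OSR2, 4 rose and 2 fell in EGR1, 8 rose and 3 fell in KLF2, and 10 rose and 3 fell in KLF4 libraries. The shares of all tested genes are those given above, and the EGR1 count was not above them. The 23 listed ones summed to 512 to 557 CPM with OSR1, 520 to 550 with OSR2, 541 to 548 with EGR1, 529 to 536 with KLF2 and 637 to 653 CPM with KLF4, against 528 to 539 CPM in Control. ERG had the largest part in this sum, at 254 CPM in KLF2, 261 CPM in KLF4 and 266 CPM in Control. The sum therefore tells little of the markers with low counts. Single markers went both ways. KDR averaged 25.7 CPM in KLF2 and 107 CPM in KLF4 libraries, against 13.4 CPM in Control, CLDN5 57.9 CPM in KLF2 and 67.5 CPM in KLF4, against 19.4 CPM in Control, and CDH5 2.57 CPM in KLF2 and 4.85 CPM in KLF4, against 1.05 CPM in Control. TIE1 was low but higher in the same groups as HEYL, at 0.786 CPM in KLF2 and 1.5 CPM in KLF4, against 0.0694 CPM in Control. PECAM1 was lower, at 47.3 CPM in KLF2 and 42.8 CPM in KLF4, against 107 CPM in Control, as was ROBO4, at 0.493 CPM in KLF2 and 0.358 CPM in KLF4, against 2.09 CPM in Control. SOX17 and ESAM stayed at or under 0.0521 CPM in every library. In KLF libraries against OSR libraries, 2 of the 16 smooth muscle and mural markers were higher and 10 lower. Of the 21 tested endothelial markers, 7 were higher and 8 lower there. Of all tested genes, 15.6% were higher and 17.4% lower in that comparison. NOTCH3, itself a Notch gene, is among the smooth muscle and mural markers. What part smooth muscle, mural or endothelial cells have in the HEYL values was not tested.

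Counted by comparison, 8 of the 10 genes rose and 2 fell in OSR1 libraries, where 51% of all tested genes were called, 28.4% higher and 22.7% lower. In OSR2, 7 rose and 2 fell (51.9% of all genes called, 28.9% higher and 23% lower). In EGR1, 7 rose and none fell (45.1% called, 24.6% higher and 20.5% lower). In KLF2, 9 rose and 1 fell (51.6% called, 28.1% higher and 23.5% lower), and in KLF4, 8 rose and 1 fell (54.2% called, 28.7% higher and 25.5% lower). The median log2 fold change of the 10 genes was 0.89 with OSR1, 0.73 with OSR2, 0.73 with EGR1, 1.26 with KLF2 and 1.38 with KLF4, while over all tested genes it was 0.05, 0.04, 0.01, 0.02 and -0.01 in the same order. These 5 comparisons share the Control libraries, so their counts are not independent of one another. The 10 genes were chosen with earlier results of these data known, so their median is no test of the set. With such shares of all genes called, a call against Control alone sets no gene apart.

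The factors were therefore also compared with one another. The Control libraries are on neither side of these contrasts, but they share the filter, the scaling and the estimate of the spread. A fit without them called the same number of the 10 genes in 3 of these 5 comparisons, 0 against 1 between KLF2 and KLF4 and 4 against 3 in EGR1 against KLF. The 4 KLF libraries were set against the 4 OSR libraries, and 5 of the 10 genes were higher and none lower, where 33% of all genes were called, 15.6% higher and 17.4% lower. These were 2 of 3 ligands and 3 of 4 targets, while NOTCH1, NOTCH2 and LFNG were not called. HEYL differed most, at a mean of 14.6 CPM in KLF and 2.88 CPM in OSR libraries (log2 fold change 2.33, SE 0.14, adjusted p = 5.5e-07). HEY1 averaged 37.3 CPM in KLF and 22.2 CPM in OSR libraries (0.74, SE 0.08, adjusted p = 2.9e-05), and JAG1 137 CPM in KLF and 88.1 CPM in OSR libraries (0.63, SE 0.07, adjusted p = 5e-05). These 3 calls held under all 16 alternatives.

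DLL1 and HEY2 were closer to the limit of the test. DLL1 averaged 7.14 CPM in KLF and 5.56 CPM in OSR libraries (0.36, SE 0.12, adjusted p = 0.046) and was called in 8 of 16 alternatives. HEY2 averaged 12.9 CPM in KLF and 9.97 CPM in OSR libraries (0.37, SE 0.11, adjusted p = 0.024) and was called in 10 of 16. Both fell short without OSR1 replicate 1, OSR2 replicate 1, KLF2 replicate 1, KLF4 replicate 1 or KLF4 replicate 2, at estimates between 0.28 and 0.39, and DLL1 also without KLF2 replicate 2 (0.41, adjusted p = 0.052). In a fit of the 8 libraries alone both fell short as well (adjusted p = 0.059 for DLL1 and 0.056 for HEY2), and DLL1 with library totals (adjusted p = 0.056). NOTCH1 (0.35, 95% interval -0.04 to 0.73), HES1 (0.38, 95% interval -0.07 to 0.84) and LFNG (0.12, 95% interval -0.13 to 0.37) were not called. NOTCH1 passed without OSR1 replicate 2 (0.50, adjusted p = 0.028) or KLF2 replicate 2 (0.48, adjusted p = 0.045), and HES1 without OSR1 replicate 2 (0.57, adjusted p = 0.036). NOTCH2 was not called either (-0.07, 95% interval -0.37 to 0.23).

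**Figure D3:**
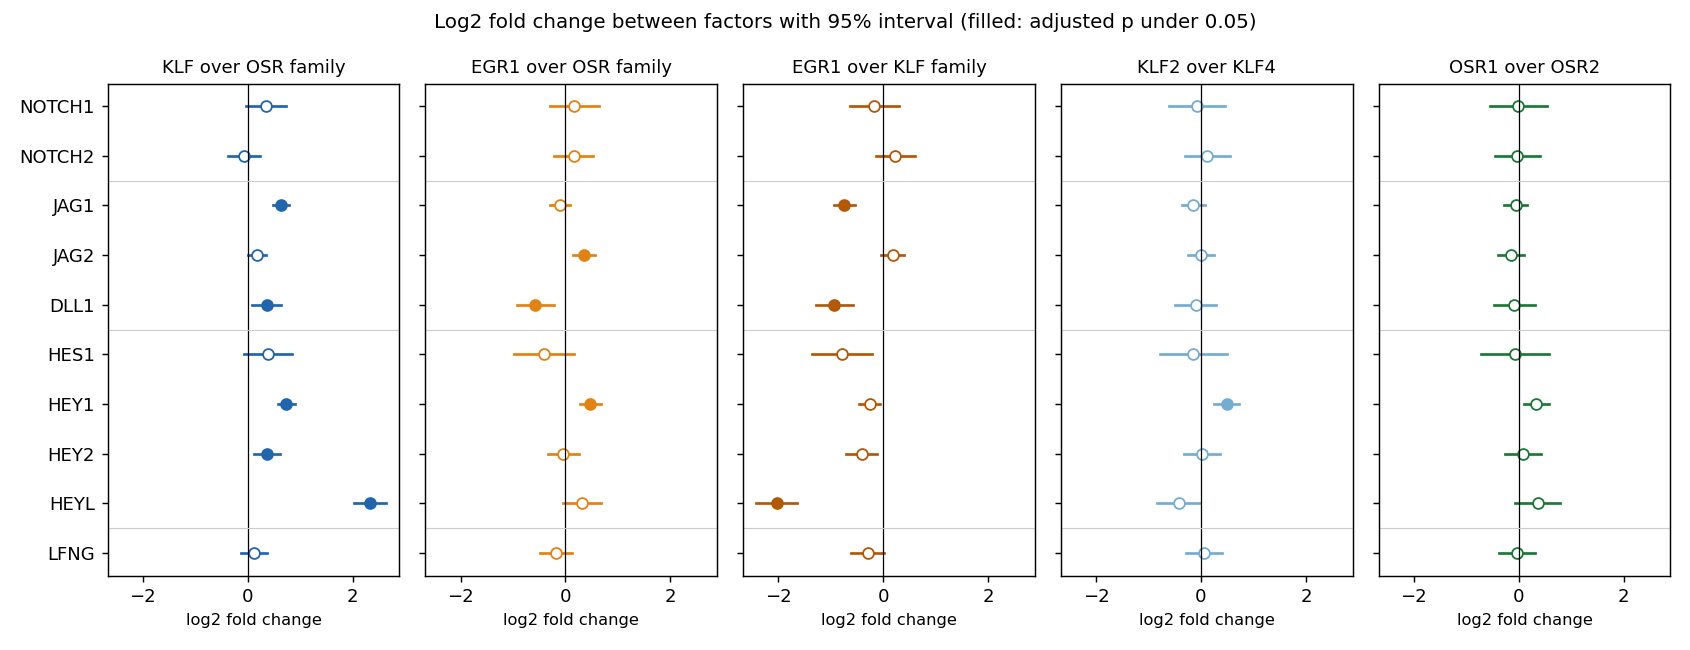
Log2 fold change (horizontal axes) of the 10 genes (rows) between factor groups, in each panel the first named over the second, with 95% intervals from the edgeR fit; filled points passed an adjusted p of 0.05. HEYL lies at 2.33 for KLF over OSR and at -2.03 for EGR1 over KLF, and in the OSR1 over OSR2 panel no point is filled.

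EGR1 libraries were then set against each family. Against the KLF libraries, 3 of the 10 genes were lower and none higher, where 14.4% of all genes were called, 8.07% higher and 6.31% lower. HEYL averaged 3.53 CPM in EGR1 and 14.6 CPM in KLF libraries (-2.03, SE 0.18, adjusted p = 3.8e-05), JAG1 81.8 CPM in EGR1 and 137 CPM in KLF libraries (-0.74, SE 0.09, adjusted p = 0.00028), and DLL1 3.73 CPM in EGR1 and 7.14 CPM in KLF libraries (-0.94, SE 0.16, adjusted p = 0.0024). These calls held under all 14 alternatives. HES1 was at -0.79 (95% interval -1.36 to -0.21, adjusted p = 0.078) and HEY2 at -0.41 (95% interval -0.70 to -0.11, adjusted p = 0.072). HES1 was called in 3 of 14 alternatives, by DESeq2 (adjusted p = 0.0047), in the compared groups alone (0.013) and without both Control libraries (0.045), with a range of 0.0047 to 0.4 over all 14. HEY2 was called in 2 of 14, by DESeq2 (adjusted p = 0.042) and in the compared groups alone (0.031), with a range of 0.031 to 0.27. NOTCH2 was at 0.23 and passed without KLF2 replicate 1 (0.41, adjusted p = 0.048).

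Against the OSR libraries, 2 of the 10 genes were higher and 1 lower in EGR1, where 17.7% of all genes were called, 8.88% higher and 8.79% lower. HEY1 averaged 30.7 CPM in EGR1 and 22.2 CPM in OSR libraries (0.48, SE 0.09, adjusted p = 0.004). It fell short only without EGR1 replicate 1 (0.41, adjusted p = 0.061). JAG2 averaged 23.3 CPM in EGR1 and 18.2 CPM in OSR libraries (0.36, SE 0.10, adjusted p = 0.026), and DLL1 3.73 CPM in EGR1 and 5.56 CPM in OSR libraries (-0.57, SE 0.16, adjusted p = 0.028). JAG2 was not called without OSR1 replicate 1 (0.31, adjusted p = 0.061), OSR2 replicate 2 (0.33, adjusted p = 0.076) or EGR1 replicate 2 (0.24, adjusted p = 0.25). DLL1 was not called without OSR1 replicate 2 (-0.49, adjusted p = 0.059), OSR2 replicate 2 (-0.49, adjusted p = 0.081), EGR1 replicate 1 (-0.46, adjusted p = 0.24) or EGR1 replicate 2 (-0.70, adjusted p = 0.061). The compared groups alone ended both calls too (adjusted p = 0.061 for JAG2 and 0.074 for DLL1), and library totals that of JAG2 (adjusted p = 0.067).

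Within each pair of related factors, few differences were seen. Between KLF2 and KLF4 libraries, HEY1 was the only one of the 10 genes called, where 2.66% of all genes were, 0.674% higher and 1.99% lower, and it was higher in KLF2, at 43.6 CPM in KLF2 and 31.0 CPM in KLF4 libraries (0.49, SE 0.11, adjusted p = 0.038). Both KLF2 libraries were above both KLF4 libraries, but the call held in 4 of 12 alternatives, and leaving out KLF2 replicate 1, KLF2 replicate 2, KLF4 replicate 1 or KLF4 replicate 2 ended it at estimates between 0.45 and 0.51 (adjusted p between 0.092 and 0.31). Blocking on replicate number gave an adjusted p of 0.067, thinned counts 0.072, the fit without both Control libraries 0.061 and the 2 groups alone 0.056. HEYL went the other way, at 12.4 CPM in KLF2 and 16.7 CPM in KLF4 libraries, and was not called (-0.43, 95% interval -0.83 to -0.02, adjusted p = 0.31). JAG1 passed only without KLF2 replicate 1 (-0.37, adjusted p = 0.034), against -0.15 with all libraries.

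Between OSR1 and OSR2 libraries none of the 10 genes was called, and edgeR called 2 genes in all, or 0.0105%, with 0.00527% in each direction (3.84% had an unadjusted p under 0.05, and DESeq2 called 35 genes, none of the 10). HEY1 was the only one of the 10 with an interval off 0, at 24.8 CPM in OSR1 and 19.7 CPM in OSR2 libraries (0.33, 95% interval 0.09 to 0.57, adjusted p = 1). For the other 9 genes the intervals of the difference reached from -0.72 at the lowest bound (HES1) to 0.79 at the highest (HEYL). Their width differed by gene, with JAG1 at -0.28 to 0.16, so the size of difference that could be missed differed too.

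For 3 of the 10 genes, the difference between replicates had the same direction in each group. In each group 1 replicate lay further along the first principal component, towards the side away from Control. The gap was 14.8 to 30.7 units in the other groups and 1.85 in KLF4, so that the order of the KLF4 replicates is close to arbitrary. NOTCH1, HES1 and HEYL were higher in that replicate in all 6 groups, as 7.5% of all tested genes were. The NOTCH1 difference was 0.56 in OSR1, 0.40 in EGR1 and 0.62 in KLF2 and at most 0.08 in the other groups, in log2 CPM, and the HES1 difference ran from 0.22 in KLF4 to 0.73 in Control. NOTCH2, JAG1 and LFNG were higher in 5 of 6 groups, as 12.9% of genes were, DLL1, HEY1 and HEY2 in 4 of 6, as 19.3% were, and JAG2 in 2 of 6, as 19.8% were. The component was computed from all genes, these 10 included, and it mainly parts Control from the factor libraries. NOTCH1, HES1 and HEYL were higher in each of the 10 factor libraries than in both Control libraries, so their direction along it is partly built in. The shares of all genes include genes that fall along the component and are no matched background. Whether RNA quality, library preparation or the cells differ along it was not tested.

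**Figure D4:**
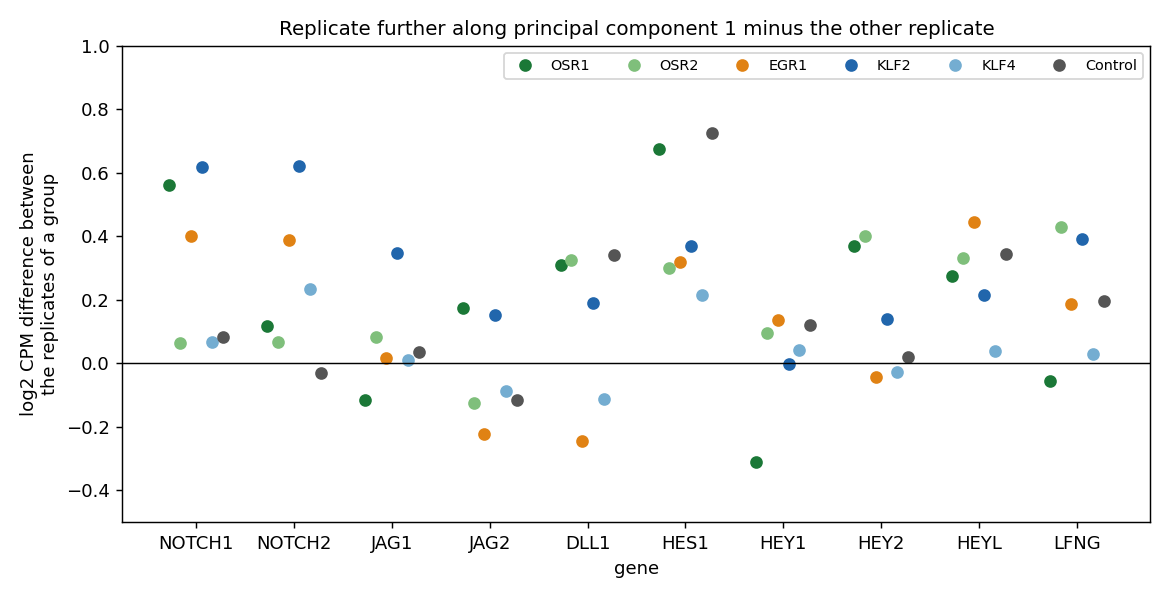
Difference in log2 CPM (vertical axis) between the 2 replicates of each group, taken as the replicate further along the first principal component minus the other, for the 10 genes (horizontal axis). All 6 points lie above 0 for NOTCH1, HES1 and HEYL, and NOTCH2 reaches 0.62 in KLF2.

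A list of 71 further genes of the pathway, also chosen with earlier results of these data known, was examined. Of these, 62 were tested, while the others are not analysed here. In OSR1 libraries 28 rose and 6 fell, where 28.4% of all genes were higher and 22.7% lower. In OSR2, 29 rose and 7 fell (28.9% and 23% of all genes), and in EGR1, 32 rose and 10 fell (24.6% and 20.5%). In KLF2, 33 rose and 11 fell (28.1% and 23.5%), and in KLF4, 30 rose and 11 fell (28.7% and 25.5%). Their median log2 fold change was 0.21 with OSR1, 0.19 with OSR2, 0.29 with EGR1, 0.30 with KLF2 and 0.28 with KLF4. Against the OSR libraries, KLF libraries had 14 of the 62 higher and 8 lower (15.6% and 17.4% of all genes), and EGR1 libraries 7 higher and 6 lower (8.88% and 8.79%). Against the KLF libraries, EGR1 libraries had 7 higher and 2 lower (8.07% and 6.31%). RBPJ, the DNA-binding partner of the cleaved receptor, averaged 80.4 CPM with OSR1, 87.0 with OSR2, 66.3 with EGR1, 51.3 with KLF2 and 57.8 with KLF4, against 76.2 CPM in Control. It fell in KLF2 (-0.57, SE 0.10, adjusted p = 0.00086) and KLF4 (-0.40, SE 0.10, adjusted p = 0.0055). NRARP, a feedback inhibitor that Notch induces, was between 4.47 and 5.22 CPM in the factor groups, against 6.18 CPM in Control, and was not called in any. HES4, which is close to HES1, rose with EGR1 (0.88, SE 0.15, adjusted p = 0.0016), KLF2 (1.19, SE 0.15, adjusted p = 0.00019) and KLF4 (1.07, SE 0.15, adjusted p = 0.00029) and was not called with OSR1 (0.02) or OSR2 (-0.05). The receptor gene NOTCH3 averaged 1.71 CPM in KLF and 2.63 CPM in OSR libraries and was lower in KLF (-0.62, SE 0.18, adjusted p = 0.021). Over Control it rose in OSR2 (0.74, SE 0.25, adjusted p = 0.031) and was not called with OSR1, EGR1, KLF2 or KLF4. RBPJ, NRARP, HES4 and NOTCH3 were named after their values were seen.

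Of the 10 listed genes with the largest mean change over Control, 9 are described here. TLE3, a corepressor of the Groucho family that works with HES proteins, rose with every factor (0.91 in OSR2 to 1.37 in KLF2, SE 0.20, adjusted p at most 0.0044). HDAC1, a histone deacetylase used by many repressors, fell with every factor (-1.07 in OSR1 to -0.77 in EGR1, SE 0.09). FURIN, the protease that cuts the receptor during its export, rose with every factor and most in KLF4 (1.88, SE 0.26, adjusted p = 0.00064).

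NEURL1, a ubiquitin ligase that acts on Notch ligands, was highest with the OSR factors. It had 19.1 and 20.9 CPM with OSR1, 20.02 and 20.8 with OSR2, 9.96 and 9.19 with EGR1, 7.87 and 7.997 with KLF2 and 5.52 and 6.98 with KLF4, against 5.65 and 5.78 CPM in Control. Each OSR library was above all others, KLF4 overlapped Control, and the log2 fold changes were 1.81 in OSR1 and 1.84 in OSR2 (SE 0.13, adjusted p = 3.7e-06 and 2.3e-06). The ubiquitin ligase genes DTX3 (0.93 to 1.44) and DTX1 (0.62 to 1.41) had positive estimates throughout, and DTX1 was not called in KLF4. CNTN1, a neural cell surface protein described as a Notch ligand, fell with every factor (-1.45 in OSR2 to -0.67 in EGR1, SE 0.14). The microfibril genes MFAP2 and MFAP5, whose proteins were reported to bind Notch or its ligands, rose with every factor, MFAP5 by 0.41 in EGR1 to 1.88 in KLF4.

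**Figure D5:**
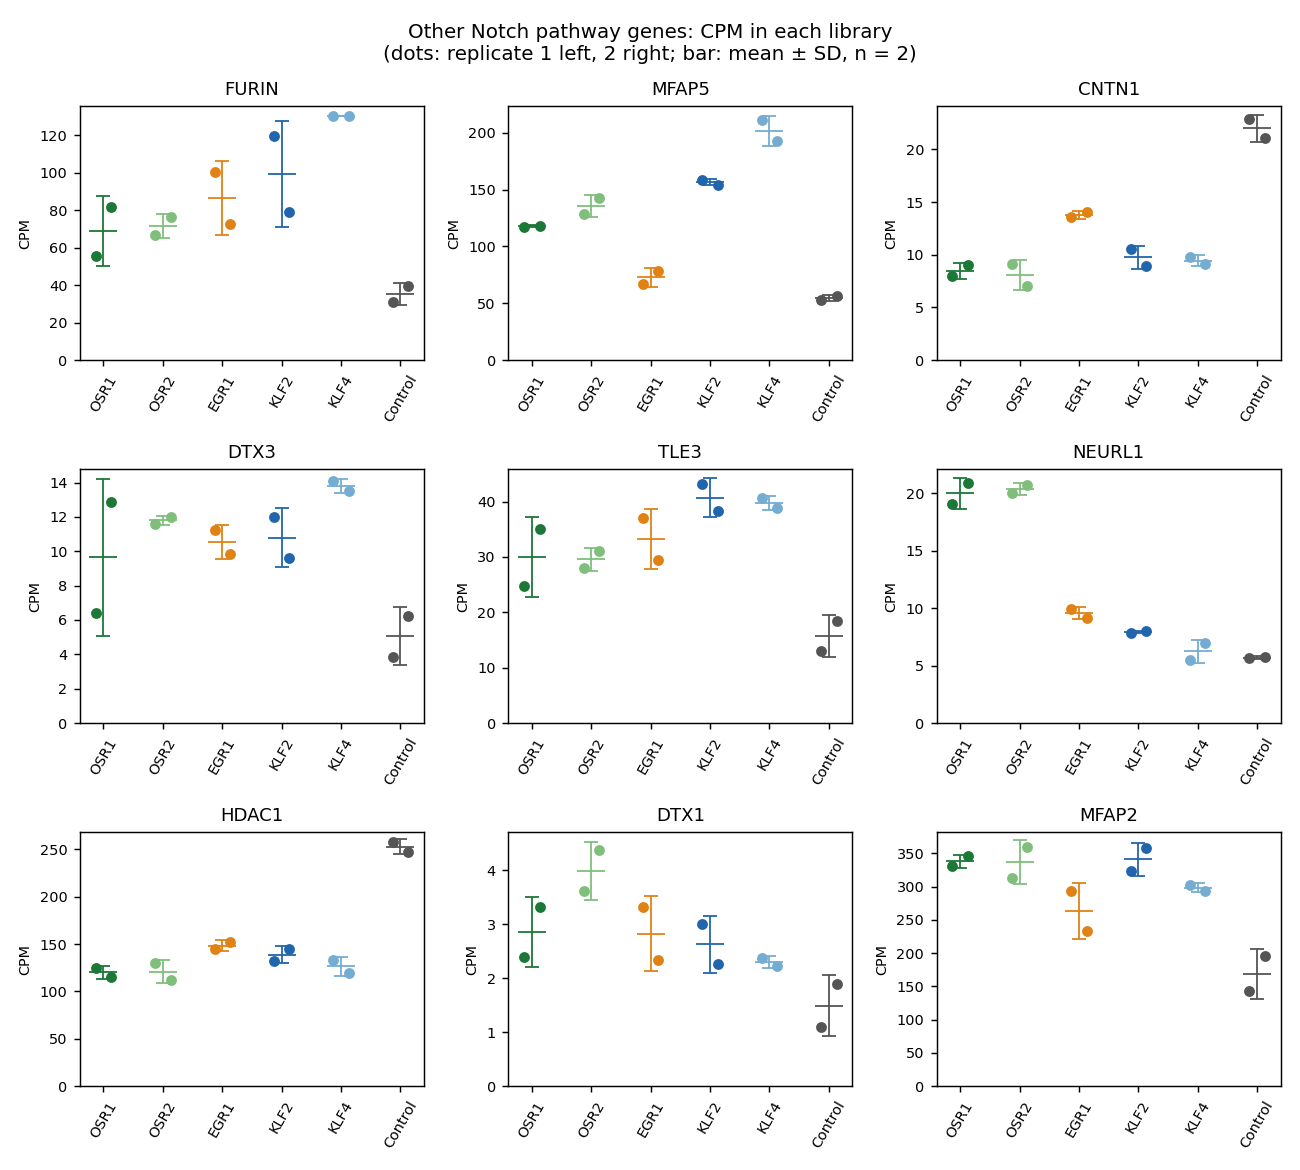
CPM of 9 of the 10 other Notch pathway genes with the largest mean change over Control (vertical axes, linear and starting at 0) in each library of the 6 groups (horizontal axes), with the mean and SD of the 2 replicates. HDAC1 and CNTN1 are highest in Control, and NEURL1 is between 19.1 and 20.9 CPM in OSR libraries and at most 9.96 CPM in all others.

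The genes whose pattern was most like that of each member were sought among 9742 genes with a symbol and a mean of at least 5 CPM, by the root mean square difference of log2 CPM over the 12 libraries after centring. For HEYL they were MFGE8, a secreted milk-fat globule protein (difference 0.30), and the scavenger receptor gene SCARA3 (0.34), where the median gene differed by 1.26. MFGE8 averaged 347 CPM in KLF2 and 474 CPM in KLF4 libraries, against 66.7 CPM in Control. For HES1 they were EFNB1, the ephrin-B1 gene (0.13), and C1QTNF5 (0.14), for DLL1 MXRA8 (0.12) and FAM20A (0.14), for JAG1 FAM208B (0.12) and SPSB1 (0.12) and for HEY1 YPEL2 (0.15) and KBTBD11 (0.16). NOTCH1 was closest to VPS28 and BOP1 (0.09 each), NOTCH2 to STX1A (0.08), LFNG to PRODH (0.08) and CNGB1 (0.09), HEY2 to PDE12 (0.10) and CASC3 (0.12) and JAG2 to SEC24A and MON2 (0.07 each). All 12 libraries share the split between Control and the factor libraries, which enters each of these values.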

How the data were processed

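Per the labels' protocols, mRNA was made into stranded TruSeq libraries and sequenced as 50-bp paired-end reads. The authors deposited whole-number counts per gene and library, not normalised, in 1 table per library. Per the submitters' processing notes the build was galGal4, and featureCounts, DESeq2, SAMtools and TopHat2 were among the tools. For their versions, roles, annotation and counting strand: not given in the sources used here. Hence genes with close paralogs, such as the HEY genes, are uncertain. Reference sequences and gene lengths were not used here, so levels are not compared between genes.

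Tests used edgeR 4.0.16 and limma 3.58.1 under R 4.3.3, and plots matplotlib 3.10.9 under Python 3.11.15. Genes were kept by filterByExpr with a minimum count of 10, scaled by TMM (factors 0.9521 to 1.041), and all 12 libraries entered 1 robust quasi-likelihood fit with 6 group means (6 residual degrees of freedom, common biological coefficient of variation 0.128). A family was the mean of its 2 factors. The SE is the log2 fold change divided by the square root of F, and 95% intervals follow from it. CPM uses the totals of the kept genes, scaled by TMM. Counting noise did not account for the differences within groups (chi-square per degree of freedom 13.84 to 91.44). The tests were first tried on simulated data, in which far fewer genes changed than were called against Control here. That trial cannot tell how the tests do where so many genes differ. Alternatives were DESeq2 1.42.0, median-of-ratios factors, library totals, no filter, the compared groups alone, the replicate number as a block, thinned counts and leaving out each library, and, chosen after seeing the data, leaving out both Control libraries.

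The members and lists were chosen with earlier results of these data known. All 10 members are named, other pathway genes if among the 10 that moved most on average against Control, up or down (called at least once, mean of at least 1 CPM), and the 2 genes closest in pattern. Of the genes this rule gives, 2 are not reported here. RefSeq names served for symbols only.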

Additional observations from a re-analysis of the deposited data

How the results depend on the processing

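Of 57 called results of the 10 genes over the 10 comparisons, with 671 values under the alternatives, 599 kept call and direction, 72 lost the call and none reversed. Of 559 values for results not called, 11 became called and 31 changed sign. Over all genes, edgeR called between 5807 and 8833 genes in OSR1, 6362 and 8500 in OSR2, 4597 and 7439 in EGR1 and 6303 and 9241 in KLF2 against Control when 1 library was left out, against 9688, 9853, 8559 and 9801 with all. The lowest counts came without Control replicate 1, which left 4698 in EGR1, and for EGR1 without EGR1 replicate 1. Left-out libraries gave 2 to 103 genes in OSR1 against OSR2, 93 to 471 in KLF2 against KLF4, 1835 to 3330 in EGR1 against the OSR family and 1590 to 3034 in EGR1 against the KLF family, where all libraries gave 2, 505, 3354 and 2730. The counts moved most without OSR1 replicate 1 (103), KLF4 replicate 1 (93), EGR1 replicate 1 (1835 against OSR) and EGR1 replicate 2 (1590 against KLF). DESeq2 called 35 genes in OSR1 against OSR2 and 773 in KLF2 against KLF4, the compared groups alone 258 in KLF2 against KLF4, and the replicate block 5 in OSR1 against OSR2. Of the 10 genes, left-out libraries called 0 to 1 in KLF2 against KLF4, 3 to 7 in KLF against OSR and 1 to 3 in EGR1 against OSR. In KLF2 against KLF4 the replicate block, thinned counts, the fit without both Control libraries and the compared groups alone each called 0 of them. The compared groups alone called 3 in KLF against OSR, 1 in EGR1 against OSR and 5 in EGR1 against KLF, and DESeq2 called 5 there. The cause of these shifts was not tested.

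Signs changed only for estimates that were not called. In OSR1 against OSR2, NOTCH1 was 0.012 with median-of-ratios factors, 0.002 with library totals, 0.011 in DESeq2 and 0.008 in the 2 groups alone. Left-out libraries gave -0.315 to 0.246 for NOTCH1, -0.092 to 0.027 for NOTCH2, -0.245 to 0.091 for DLL1, -0.452 to 0.224 for HES1, -0.118 to 0.293 for HEY2 and -0.232 to 0.199 for LFNG. In KLF2 against KLF4, JAG2 was 0.06 with thinned counts, and left-out libraries gave -0.461 to 0.198 for NOTCH1, -0.261 to 0.40 for NOTCH2, -0.373 to 0.015 for JAG1, -0.123 to 0.071 for JAG2, -0.386 to 0.026 for HES1, -0.089 to 0.092 for HEY2 and -0.193 to 0.241 for LFNG. They gave -0.229 to 0.07 for NOTCH2 in KLF against OSR, and in EGR1 against OSR -0.043 to 0.359 for NOTCH1, -0.047 to 0.342 for NOTCH2 and -0.132 to 0.069 for HEY2. In EGR1 against KLF, NOTCH1 ran from -0.388 to 0.014.

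Same-numbered libraries of 2 groups deviated together with r from -0.29 (OSR2 and KLF2) to 0.22 (OSR1 and Control), over 0.1 in 4 of 15 pairs. These values cannot tell if the libraries were made in pairs or batches, since the numbering may differ between groups. The block changed 2 calls of the 10 genes, HEY2 in OSR1 against Control (adjusted p = 0.051) and HEY1 in KLF2 against KLF4 (adjusted p = 0.067). The Control libraries hold 113 and 163 reads of DLL1 and 69 and 100 of HEYL, which adds counting noise for these 2 genes. They were still not the least precise. For OSR1 over Control, the SE was 0.185 for DLL1 and 0.205 for HEYL. It was 0.294 for HES1, 0.238 for NOTCH1 and 0.1 for JAG1.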
